A study of Mus musculus with 2 samples.

Results

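Oxidative phosphorylation genes were described here in microglia sorted from the brains of PSAPP mice. The set was chosen by symbol. It holds every row of the count table that starts with Ndufa, Ndufb, Ndufc, Ndufs, Ndufv, Cox4, Cox5, Cox6, Cox7, Cox8, Uqcr, Atp5, Sdha, Sdhb, Sdhc or Sdhd, without Ndufaf genes and without symbols that end in -ps, and every row that starts with mt-. This gave 102 of 32285 genes, of which 89 are nuclear and 13 are encoded by mitochondrial DNA. The nuclear genes divide into 36 of complex I, 4 of complex II, 8 of complex III, 19 of complex IV, 17 of complex V and 5 assembly factors that the prefixes also catch (Sdhaf1, Sdhaf2, Sdhaf3, Sdhaf4 and Cox7a2l).

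PSAPP mice carry the APPswe and PS1δE9 transgenes, and all animals of both groups had this genotype, so that no mouse without the transgenes was compared. From 9 months of age they were gavaged daily for 30 days with vehicle (VEH) or with lemborexant (LEM), an antagonist of both orexin receptors, at 30 mg/kg/day, and tissue was taken at 10 months. Cortex and hippocampus of 5 mice, of both sexes, were pooled into 1 suspension per treatment, live cells with low CD45 and with CD11b were sorted, and each pool gave 1 single-cell 5′ library. The treatment therefore has no replicate, and no test or p-value is given. Intervals are exact at a level of 95% and cover counting error only.

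Oxidative phosphorylation passes electrons from NADH and succinate through complexes I to IV to oxygen, and complex V, the ATP synthase, uses the proton gradient that this makes. Complexes I, III, IV and V mix subunits from the nucleus with subunits from mitochondrial DNA, whereas complex II is wholly nuclear. Microglia survey the brain in a homeostatic state and, near amyloid plaques, can take on the state known as disease-associated microglia (DAM), which is known for changed lipid and energy metabolism.

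The VEH library held 18374 cells with 116229678 counts and the LEM library 24392 cells with 160752298 counts, at medians of 5971 and 6034 counts per cell. The 5 microglial markers P2ry12, Tmem119, Siglech, Gpr34 and P2ry13 summed to 9634 and 9557 CPM (counts of the gene divided by all counts of the cells, times 1000000), against 0.929 and 0.734 CPM for 6 neuronal markers. Choroid plexus markers were at 36.6 CPM in the VEH and 102 CPM in the LEM library. No cell had a mitochondrial share above 2.5%, because such cells had been removed by the authors, and this truncates every mitochondrial-encoded level below. No mitochondrial-encoded count was found in 415 cells and no count of a nuclear member in 76. A value near that limit, at 2% or more, was found in 437 cells (1.02%). Cells were also assigned to a sex from female-specific and Y-linked transcripts, which gave each library a female and a male pool from different mice. The pools leave out 2682 VEH and 2996 LEM cells with no sex call and 981 and 1764 cells with transcripts of both sexes.

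Nuclear and mitochondrial-encoded transcripts were of like abundance. The nuclear genes summed to 9910 CPM in VEH and 9962 CPM in LEM, close to 1% of all counts. The mitochondrial-encoded genes summed to 6944 and 7242 CPM. A count is the 5′ end of 1 molecule, so CPM values were compared between genes without division by length.

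Among nuclear genes, complex IV and complex V held the most abundant members. Cox4i1, which carries a regulatory subunit of cytochrome c oxidase, was at 415 CPM in VEH and 425 CPM in LEM, followed in complex IV by Cox8a (338 and 355 CPM) and Cox7c (211 and 196 CPM). In complex V the highest were Atp5g2, a gene for the c-ring subunit (327 and 324 CPM), Atp5e (249 and 260 CPM) and Atp5b, the catalytic beta subunit (246 and 254 CPM). Complex III was led by Uqcrh, the hinge protein (163 and 172 CPM), Uqcr11 (132 and 136 CPM) and, in VEH, Uqcrb (131 and 122 CPM), which in LEM was level with Uqcrc1 (121 and 123 CPM). Complex I was led by Ndufc2 (185 and 183 CPM), Ndufa6 (165 and 172 CPM) and Ndufa13 (156 and 156 CPM). Complex II was the least abundant, with Sdhb, the iron-sulfur subunit, at 129 and 130 CPM, Sdha, the flavoprotein, at 103 and 103 CPM, and Sdhd, a membrane anchor, at 71.8 and 69.9 CPM.

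The mitochondrial-encoded genes differed widely in level although mitochondrial DNA is transcribed as long precursors. The order began with mt-Co1 (1185 CPM in VEH and 1233 in LEM), mt-Cytb (993 and 1041), mt-Co3 (954 and 1033), mt-Co2 (891 and 963) and mt-Atp8 (845 and 843). It went on with mt-Nd4l (576 and 598), mt-Nd2 (385 and 392) and mt-Nd1 (370 and 375). At the low end were mt-Nd5 (209 and 210), mt-Nd4 (208 and 221), mt-Atp6 (207 and 219), mt-Nd3 (86.7 and 80.1) and mt-Nd6 (35.1 and 34.4), the only member encoded on the other strand. The order of mt-Nd5, mt-Nd4 and mt-Atp6 differed between the libraries, so these neighbours were not separated. The split of counts between mt-Atp8 and mt-Atp6, between mt-Atp6 and mt-Co3 and between mt-Nd4l and mt-Nd4 is uncertain, because these genes overlap or abut on the mitochondrial genome.

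Isoforms known from heart, muscle, testis or hypoxic cells were almost silent. Cox8c had 0 counts in both libraries. The floor for a count of 0 is 3 counts, and Ndufa4l2 (2 and 0 counts) was under it in both. Cox7b2 had 6 and 1 counts, Cox4i2, the oxygen-regulated partner of Cox4i1, 18 and 10, and Cox7a1, the heart and muscle partner of Cox7a2, 59 and 123. Of the 144 and 303 counts of Cox8b, 138 and 287 lay in the few droplets that passed a gate of choroid plexus markers, as did 44 and 148 of the 272 and 574 counts of Cox6b2. Cox4i2 made up 0.0373% of the counts of Cox4i1 and Cox4i2 together in VEH and 0.0146% in LEM. Cox6a2, the heart and skeletal muscle form of subunit 6a, was the exception, with 14.5% (14.0 to 15.0%) of the Cox6a1 and Cox6a2 counts in VEH and 17.3% (16.8 to 17.7%) in LEM.

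**Figure D1:**
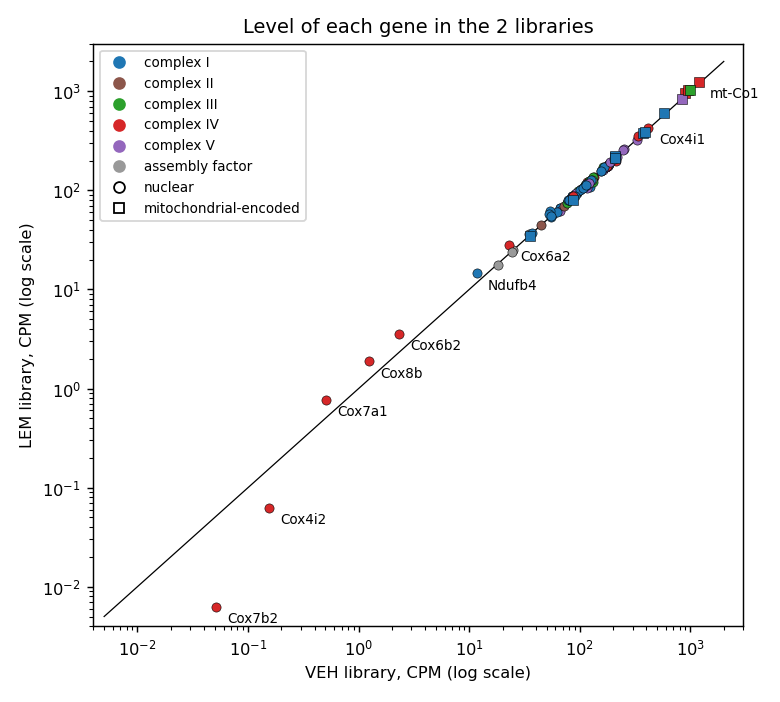
Level of each gene in the VEH library (x axis) and the LEM library (y axis), in CPM on log scales, coloured by complex, with circles for nuclear and squares for mitochondrial-encoded genes; the line marks equal levels and genes at 0 in a library are left out. Members above 10 CPM lie close to the line, and the scattered points at the lower left are rare isoforms such as Cox7b2 with 6 and 1 counts.

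LEM and VEH were then compared, which asks whether lemborexant was accompanied by a different level of these genes in the pooled microglia. The log2 ratio of LEM over VEH of the nuclear sum was 0.01 (interval 0.00 to 0.01). Female cells were at 0.02 and male cells at -0.02. In CPM the nuclear sum was 9861 in VEH female, 9904 in VEH male, 10021 in LEM female and 9752 in LEM male cells, so that the LEM pools lay on both sides of the VEH pools. The mitochondrial-encoded sum was 0.06 higher in LEM (0.06 to 0.06), and the ratio was 0.04 for female and 0.08 for male cells. Its pools were at 6781 (VEH female), 7076 (VEH male), 6979 (LEM female) and 7462 CPM (LEM male), and the LEM female pool lay below the VEH male pool. In homeostatic-gated cells alone the log2 ratios were -0.02 for nuclear and 0.06 for mitochondrial-encoded genes.

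No complex stood out in this comparison. The nuclear sums of complexes I, II, III, IV and V had log2 ratios of 0.00, 0.00, 0.01, 0.02 and 0.00. Of the mitochondrial-encoded sums, complex IV was highest at 0.09 (0.05 in female and 0.12 in male cells). Complex III followed at 0.07 (0.09 and 0.07), then complex I at 0.03 and complex V at 0.01. In female cells complex III thus lay above complex IV.

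A log2 ratio of at least 0.1 in size, the fold that the study uses, was counted for genes found in at least 1% of the cells of either library. Of 83 nuclear members that passed this filter 5 were higher and 5 lower in LEM, against 21.0% of all 11910 genes higher and 14.1% lower. The other 6 nuclear members (Cox4i2, Cox7a1, Cox7b2, Cox8b, Cox8c and Ndufa4l2) did not pass it. All 13 mitochondrial-encoded members passed, with mt-Co3 (0.12) and mt-Co2 (0.11) higher and mt-Nd3 (-0.11) lower. In female and male cells mt-Co3 was at 0.04 and 0.17, mt-Co2 at 0.08 and 0.13 and mt-Nd3 at -0.16 and -0.09. Each thus passed the fold in 1 sex only. The median log2 ratio was 0.01 over all genes, 0.01 over nuclear and 0.06 over mitochondrial-encoded members. For genes in at least 10% of cells, 14.1% of all genes were higher and 9.86% lower, beside 3 and 5 of 81 nuclear and 2 and 1 of 13 mitochondrial-encoded members.

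The largest ratio among the 5 higher nuclear members was that of Cox6b2, at 2.34 CPM in VEH and 3.57 in LEM (log2 0.61; 0.63 in female and 0.72 in male cells), a rare isoform counted in 1.22% and 1.89% of cells. Choroid-gated droplets, 0.245% of VEH and 0.586% of LEM cells, held 44 of its 272 and 148 of its 574 counts. In homeostatic-gated cells Cox6b2 was at 1.79 and 2.36 CPM. Among members found in at least 10% of the cells of either library with the same direction in both sexes, Cox6a2 was highest, at 22.9 CPM in VEH and 28.1 in LEM (log2 0.30; 0.12 in female and 0.45 in male cells). Counts of it were present in 7.68% of cells in VEH and 10.3% in LEM, so that it passed this filter only through LEM, where it was higher. In homeostatic-gated cells Cox6a2 was at 10.1 CPM in VEH and 14.2 in LEM. In cells gated for DAM markers, described below, it was at 174 and 168 CPM and thus not higher in LEM. Ndufa9, an accessory subunit of complex I, was at 53.2 and 62.1 CPM (0.22; 0.29 and 0.17). Ndufs6 was at 52.1 and 57.1 CPM (0.13; 0.23 and 0.03). Toward the other side, Ndufa3 was at 123 and 107 CPM (-0.20), with pools of 121 (VEH female), 124 (VEH male), 108 (LEM female) and 103 CPM (LEM male). Atp5g1, one of 3 genes for the same c-ring protein, was at 115 and 106 CPM (-0.11; -0.23 in female and -0.06 in male cells). Cox7c was at 211 and 196 CPM (-0.11; -0.12 and -0.11) and Atp5k at 66.5 and 61.8 CPM (-0.11; -0.04 and -0.18). Atp5g1 and Atp5k thus passed the fold in 1 sex only. Ndufb4, at 11.8 and 14.5 CPM (0.29), has near-identical copies in the genome and is uncertain.

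Next, members were compared between cell states. Cells were gated on raw counts of marker genes, none of which is a member. The homeostatic reference needed at least 3 of P2ry12, Tmem119, Siglech, Gpr34 and P2ry13 with few markers of any other state, and held 12431 cells in VEH and 15950 in LEM. The DAM gate needed at least 3 of the 6 markers Cst7, Lpl, Spp1, Itgax, Gpnmb and Csf1 with at least 5 counts, and held 538 cells (2.93%) in VEH and 696 (2.85%) in LEM. The homeostatic markers were at 5799 and 6138 CPM in DAM-gated and 10258 and 10242 CPM in homeostatic-gated cells, which the gates in part fix. State contrasts were taken inside each library, so that both sides had the same treatment. The 2 libraries differ in treatment and mice, so an SD over them is not a spread between replicates.

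DAM-gated cells carried more oxidative phosphorylation transcripts from both genomes. The nuclear sum went from 9456 CPM in homeostatic-gated to 13364 CPM in DAM-gated cells in VEH and from 9313 to 13592 CPM in LEM, a log2 ratio of 0.50 and 0.55 (mean 0.52, SD 0.03, n = 2 libraries). The mitochondrial-encoded sum went from 6533 to 9650 CPM in VEH and from 6803 to 9828 CPM in LEM, a log2 ratio of 0.56 and 0.53 (mean 0.55, SD 0.02, n = 2 libraries). Both sums were higher in every library and sex pool, by 0.49 to 0.58 for nuclear and by 0.46 to 0.62 for mitochondrial-encoded genes. The ratio of mitochondrial-encoded to nuclear counts stayed near that of the reference, at 0.722 and 0.723 in DAM-gated against 0.691 and 0.731 in homeostatic-gated cells. Cells with at least 2% mitochondrial counts made up 2.42% and 4.60% of DAM-gated against 0.764% and 0.846% of homeostatic-gated cells, so that the limit of 2.5% cut more closely into the DAM-gated cells.

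Most other genes lay on the other side by CPM. For genes found in at least 10% of cells, 15.2% of all 7526 genes were higher and 63.1% lower by at least 0.1 in both libraries, with a median of -0.28. Of the 81 nuclear members that passed the same filter, 56 were higher and 3 lower, with a median of 0.43. All 13 mitochondrial-encoded members were higher, with a median of 0.60. CPM values are shares of a total, and scaling to the median gene would raise every log2 ratio by 0.28. Under that scaling, chosen after seeing the data, 77 nuclear members were higher and 1 lower, against 33.0% of all genes higher and 32.1% lower.

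The complexes differed in size of the contrast. Nuclear complex IV was highest, with a log2 ratio of 0.82 (SD 0.03), then complex III at 0.53 (SD 0.01), complex V at 0.49 (SD 0.05) and complex I at 0.40 (SD 0.04). Complex II, at 0.00 (SD 0.04), was level with the reference by CPM, and 0.28 above it when scaled to the median gene. The mitochondrial-encoded parts were closer to each other, at 0.64 for complex V, 0.55 for complex I, 0.53 for complex IV and 0.51 for complex III.

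In complexes I and III most nuclear core subunits were near the reference by CPM, and most accessory subunits were higher; scaled to the median gene, all group medians would lie above the reference. These groups were formed after the values had been seen and serve as description, and their counts stand against the 15.2% of all genes higher and 63.1% lower. Among nuclear core subunits of complex I, Ndufs1, which carries iron-sulfur clusters, was at -0.44 and 0.04 (log2, VEH and then LEM), Ndufs7 at 0.04 and 0.05, and Ndufv2 at 0.07 and 0.08. Of the 28 accessory complex I subunits in at least 10% of cells, 22 were higher and 0 lower, with medians of 0.42 in VEH and 0.46 in LEM. In complex III, Uqcrc1 and Uqcrc2, the large core proteins, had log2 ratios of -0.09 and -0.13 in VEH and -0.01 and -0.09 in LEM, and Uqcrfs1, the Rieske iron-sulfur protein, 0.14 and 0.26. The 5 small complex III subunits were all higher, with medians of 0.72 and 0.73. In complex V the split was weaker, since 4 of 5 subunits of the catalytic head were higher (Atp5a1 was the one that was not, at 0.05 and 0.16), beside 11 of 12 others. All 12 nuclear complex IV subunits in at least 10% of cells were higher.

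**Figure D2:**
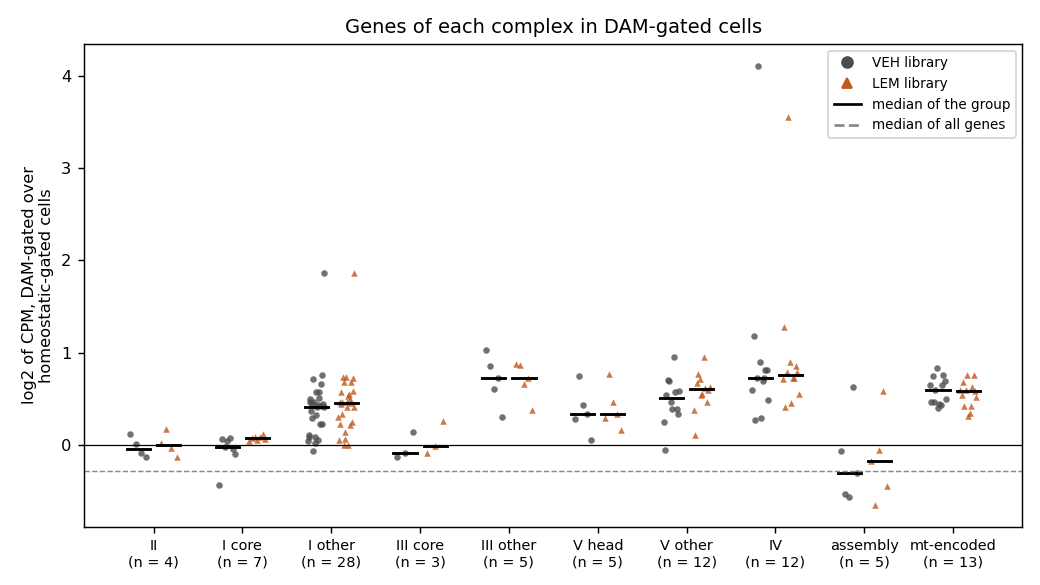
Log2 of CPM in DAM-gated over homeostatic-gated cells (y axis) for each member in at least 10% of cells, grouped by complex and by core or other subunits (x axis, number of genes in parentheses), with circles for the VEH library, triangles for the LEM library, black bars for group medians and a dashed line at the median of all genes (-0.28). Complex II and the cores of complexes I and III lie near 0, the other groups of subunits lie above, and Cox6a2 (4.11 and 3.56) and Ndufa1 (1.86 and 1.86) stand apart from their groups.

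Transcript length was also set beside the DAM contrast. The median of the longest coding transcript in the GENCODE M21 annotation was 892 bases over 80 of the 81 nuclear members and 3078 bases over 7306 genes. Across these 80 members, Spearman's rho between transcript length and the DAM contrast was -0.60, against -0.34 over all genes. The 44 members with transcripts under 1000 bases had a median of 0.53 and the 36 longer ones 0.07. Over all genes the medians were 0.24 for 444 short and -0.30 for 6862 longer transcripts. Genes are not replicates and share the libraries, so these are descriptions, and the part of transcript length in the contrast was not tested.

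Cox6a2 had the largest contrast of all members. It was at 10.1 CPM in homeostatic-gated and 174 CPM in DAM-gated cells in VEH, and at 14.2 and 168 CPM in LEM, a log2 ratio of 4.11 and 3.56. Counts of Cox6a2 were found in 58.0% and 61.4% of DAM-gated cells, at median depths of 11090 and 11368 counts, against 4.53% and 6.49% of homeostatic-gated cells at 5620 and 5682 counts. With each cell thinned to 2000 counts, which left out 7 and 2 DAM-gated and 960 and 839 homeostatic-gated cells, the shares were 25.4% and 22.5% against 1.76% and 2.44%. Choroid-gated droplets, which held both choroid and microglial markers, had Cox6a2 counts in 11.1% and 6.99%, at 9338 and 8161 counts, and in 4.65% and 2.21% after thinning. They give no measure of free RNA, whose part in the counts of homeostatic-gated cells was not tested. The other form, Cox6a1, went from 119 to 271 CPM and from 117 to 286 CPM. Cox6a2 therefore made up 7.80% and 10.8% of subunit 6a counts in homeostatic-gated cells and 39.1% (37.2 to 41.0%) and 37.0% (35.4 to 38.6%) in DAM-gated cells.

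Cox6a2 lies on chromosome 7 (128205435 to 128206387, minus strand, GRCm38), inside Itgad on the other strand (128154376 to 128223816). Itgax (128129547 to 128150657), which codes for CD11c and is one of the DAM markers of the gate, is a near neighbour. Itgad itself was at 12.8 and 12.4 CPM in homeostatic-gated and 10.2 and 7.25 CPM in DAM-gated cells, lower where Cox6a2 was higher. Its log2 ratios of -0.33 and -0.77 rest on 61 and 59 counts in DAM-gated cells, and the median of all genes was -0.28. Itgax was at 9.99 and 17.3 CPM in homeostatic-gated and 222 and 208 CPM in DAM-gated cells, which the gate in part fixes. With Itgax left out of gate and reference, an alternative chosen after seeing the data, the DAM gate held 399 and 530 cells and the mean log2 ratio of Cox6a2 was 3.87, against 3.83 with it.

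The next members were Ndufa1, a small membrane subunit of complex I encoded on the X chromosome, and Cox6a1. Ndufa1 was at 65.2 CPM in homeostatic-gated and 236 CPM in DAM-gated cells in VEH and at 61.6 and 224 CPM in LEM, a log2 ratio of 1.86 in both. Cox6a1 had log2 ratios of 1.18 and 1.28. Uqcrh (1.03 and 0.88), Atp5mpl (0.95 and 0.95), Cox4i1 (0.90 and 0.90), Uqcr11 (0.85 and 0.87), Cox6c (0.81 and 0.85) and Cox8a (0.81 and 0.79) followed. Cox4i1 alone went from 376 to 704 CPM and from 380 to 709 CPM.

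On the lower side were assembly factors and Sdha. Sdhaf3, which takes part in the maturation of the succinate dehydrogenase iron-sulfur subunit, was at 18.4 CPM in homeostatic-gated and 12.7 CPM in DAM-gated cells in VEH and at 18.7 and 11.9 CPM in LEM (log2 -0.53 and -0.65). Sdhaf2, which attaches flavin to Sdha, had log2 ratios of -0.31 and -0.45, and Sdha, at 103 CPM in homeostatic-gated and 94.2 CPM in DAM-gated cells in VEH, -0.13 in both libraries. Sdhaf4 was at -0.07 and -0.17. Sdhaf1 was at -0.57 in VEH and -0.06 in LEM, and so did not pass in both. Scaled to the median gene, Sdha lies above the reference and Sdhaf3 below it. Cox7a2l, a supercomplex factor, was higher (0.63 and 0.58), and Atp5g1 moved with the family, at 17.3% and 15.6% of c-ring counts in DAM-gated against 17.1% and 15.5% in homeostatic-gated cells.

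Promoter sequence was examined because members of the same complex parted in DAM-gated cells. RefSeq promoters of GRCm38.p6, from 250 bases before to 50 bases after the start, were matched for 73 of the 89 nuclear members. Cox6a2, Cox4i1, Cox6c and Atp5mpl were among those not matched. Of those shown here, Cox6a1 and Ndufa1 were among the 3 highest members in DAM-gated cells, and Uqcrc1 (-0.09 and -0.01) and Sdha (-0.13 and -0.13) were flat or lower. Capitals mark a match to the NRF1 motif GCGCATGCG on either strand, whose matches on the 2 strands overlap in a palindrome. The windows are chr5:115348909-115349208, minus strand for Cox6a1, chrX:37191189-37191488, minus strand for Ndufa1, chr9:108936398-108936697, plus strand for Uqcrc1 and chr13:74350191-74350490, minus strand for Sdha.
Cox6a1 promoter: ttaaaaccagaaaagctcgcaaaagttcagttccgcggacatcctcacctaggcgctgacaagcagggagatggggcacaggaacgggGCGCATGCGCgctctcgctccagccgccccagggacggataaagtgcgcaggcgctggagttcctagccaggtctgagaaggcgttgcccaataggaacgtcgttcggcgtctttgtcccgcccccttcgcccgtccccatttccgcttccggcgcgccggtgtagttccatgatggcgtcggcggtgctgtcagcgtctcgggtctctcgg
Ndufa1 promoter: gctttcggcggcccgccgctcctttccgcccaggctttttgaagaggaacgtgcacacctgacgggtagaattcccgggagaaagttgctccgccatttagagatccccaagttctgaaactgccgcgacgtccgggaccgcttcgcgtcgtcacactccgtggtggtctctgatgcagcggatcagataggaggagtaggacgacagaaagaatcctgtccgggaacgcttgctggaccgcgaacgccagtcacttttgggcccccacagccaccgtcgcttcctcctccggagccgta
Uqcrc1 promoter: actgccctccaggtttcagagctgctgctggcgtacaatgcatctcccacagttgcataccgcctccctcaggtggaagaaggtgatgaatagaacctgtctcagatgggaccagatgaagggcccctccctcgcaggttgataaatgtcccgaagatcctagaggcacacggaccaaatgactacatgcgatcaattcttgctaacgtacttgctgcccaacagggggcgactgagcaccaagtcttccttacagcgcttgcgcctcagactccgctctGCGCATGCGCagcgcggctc
Sdha promoter: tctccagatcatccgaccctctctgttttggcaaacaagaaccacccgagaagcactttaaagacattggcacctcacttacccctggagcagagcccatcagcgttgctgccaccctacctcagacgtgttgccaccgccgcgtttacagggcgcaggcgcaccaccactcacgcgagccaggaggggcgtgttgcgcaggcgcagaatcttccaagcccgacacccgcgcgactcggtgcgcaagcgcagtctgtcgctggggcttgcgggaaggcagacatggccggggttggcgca

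The NRF1 letters thus occurred in one promoter of each kind, that of Cox6a1 and that of Uqcrc1. Among the 68 matched members in at least 10% of cells, 8 promoters held them (11.8%), against 4.95% of 6056 genes of like detection and 1.95% of all 27025 genes with a promoter. The YY1 motif AAGATGGC was found in 10 (14.7%), against 6.62% and 3.19%, and the ETS motif CCGGAAGT, bound by GABP, in 5 (7.35%), against 11.1% and 4.31%, on either strand. The DAM contrast had a median of 0.59 over the 8 members with NRF1 letters and 0.41 over the 60 without, and the former ranged from -0.05 to 1.23. With and without the ETS letters the medians were 0.80 (5 members) and 0.41 (63), and with and without the YY1 letters 0.45 (10) and 0.41 (58). A match describes the letters in this window only.

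All mitochondrial-encoded genes were higher in DAM-gated cells, by different amounts. The largest log2 ratios were those of mt-Atp6 (0.83 and 0.76), mt-Nd5 (0.76 and 0.76) and mt-Co1 (0.75 and 0.68), the smallest those of mt-Co3 (0.40 and 0.31), mt-Nd3 (0.44 and 0.35) and mt-Nd4l (0.43 and 0.42). Between them lay mt-Nd6 (0.69 and 0.58), mt-Nd1 (0.65 and 0.59), mt-Nd4 (0.65 and 0.63), mt-Atp8 (0.59 and 0.60), mt-Cytb (0.50 and 0.52), mt-Nd2 (0.46 and 0.54) and mt-Co2 (0.47 and 0.42). The share of mt-Co1 in mitochondrial-encoded counts went from 16.8% and 16.8% to 19.2% and 18.5%, and that of mt-Co3 from 13.9% and 14.6% to 12.4% and 12.5%. As above, the split of counts among mt-Atp8, mt-Atp6 and mt-Co3 and between mt-Nd4l and mt-Nd4 is uncertain. The places of these genes in the order are therefore uncertain too.

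Depth was considered because DAM-gated cells held more counts per cell, at medians of 11090 and 11368 against 5620 and 5682. In homeostatic-gated cells the nuclear sum moved with depth, from 8452 CPM in VEH and 9568 CPM in LEM under 2000 counts and 7975 CPM in VEH and 7756 CPM in LEM at 2000 to 4000 counts to 9899 and 9731 CPM at 8000 to 12000 counts, and was 9289 and 9118 CPM at 12000 counts and over. The DAM-gated cells were above them at the same depth, at 13453 and 13661 CPM at 8000 to 12000 counts and at 13515 and 13508 CPM at 12000 and over. For mitochondrial-encoded genes, the DAM-gated cells were at 9535 and 9774 CPM at 8000 to 12000 counts, against 7249 and 7413 CPM in the reference. With the reference standardised to the depths of the DAM-gated cells, the contrast was 0.52 for nuclear and 0.49 for mitochondrial-encoded genes. In cells of 8000 to 12000 counts alone, 53 nuclear members were higher and 4 lower, against 15.3% and 53.0% of all genes. DAM-gated cells also held more droplets with transcripts of both sexes, 9.48% and 13.4% against 4.12% and 5.36%, and without these droplets the contrasts were 0.54 for nuclear and 0.58 for mitochondrial-encoded genes. The chemokines Ccl3 and Ccl4 summed to 3124 and 2632 CPM in DAM-gated cells and to 3499 and 3292 CPM in chemokine-gated cells. The part of chemokine expression in the DAM contrast was not tested.

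**Figure D3:**
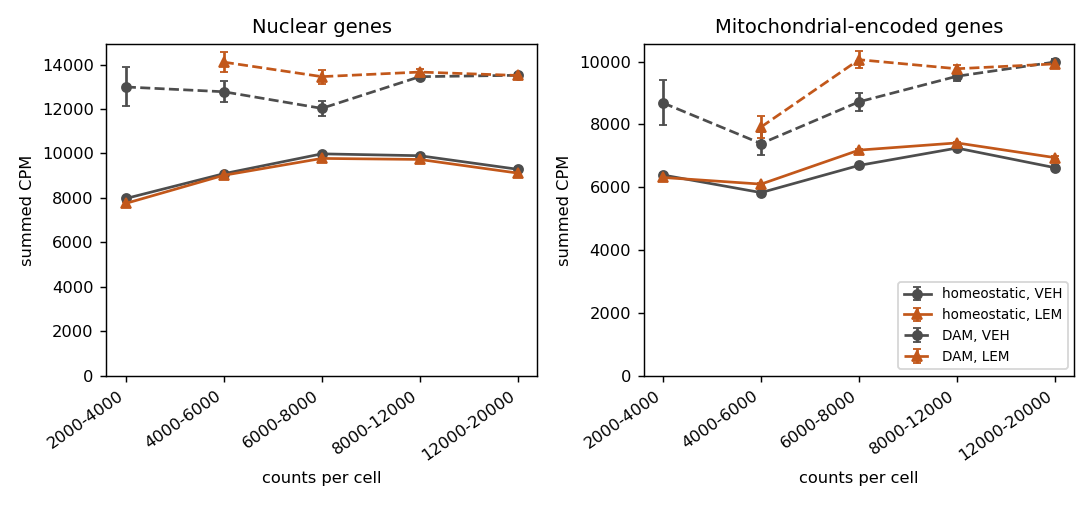
Summed CPM of nuclear (left) and mitochondrial-encoded genes (right) by counts per cell (x axis), for homeostatic-gated cells (solid lines) and DAM-gated cells (dashed lines) of the VEH (circles) and LEM (triangles) library, with 95% Poisson intervals as error bars and classes with under 20 cells left out. In each depth class shown, the DAM-gated cells lie above the homeostatic-gated cells of the same library.

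At 8000 to 12000 counts and at 12000 and over, the nuclear sum was graded with the number of DAM markers. At 4000 to 6000 counts it rose up to 3 markers in both libraries. LEM cells of that depth were at 12998 CPM with 3 and 12641 CPM with 4 markers (45 and 22 cells). In cells of 12000 counts and over, outside the choroid, border macrophage, cycling and interferon gates, the nuclear sum went from 9354 CPM with 0 markers to 10216 CPM with 2, 13506 CPM with 4 and 14420 CPM with 5 or more in VEH. In LEM the same steps were 9200, 10126, 13508 and 14143 CPM. The mitochondrial-encoded sum went over these steps from 6733 to 11504 CPM in VEH and from 7088 to 10525 CPM in LEM. It was less regular at 8000 to 12000 counts, where VEH cells were at 7215 CPM with 0 markers, 9995 with 3, 9258 with 4 and 8041 with 5 or more, and LEM cells at 7317, 9792, 9095 and 10506 CPM. In cells of 8000 counts and over, Cox6a2 went from 12.4 and 18.0 CPM with 0 markers to 44.8 and 56.7 CPM with 2 and 222 and 204 CPM with 5 or more. Ndufa1 went from 71.2 and 68.3 to 282 and 270 CPM over the same steps. Sdha did not follow, at 105 and 105 CPM with 0 markers and 103 and 88.5 CPM with 5 or more.

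**Figure D4:**
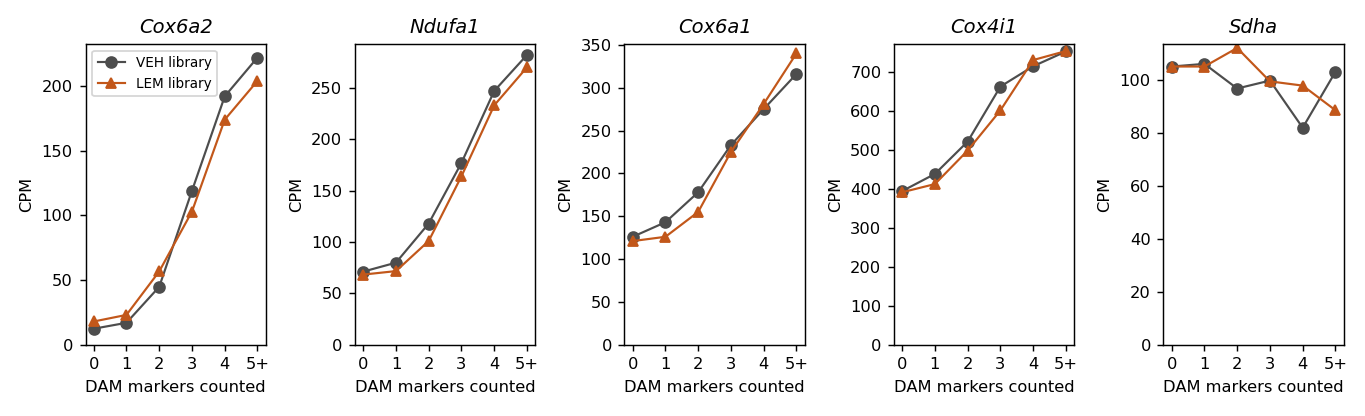
CPM of 5 members (y axes, each from 0) against the number of DAM markers counted in a cell (x axis), in cells of at least 8000 counts, for the VEH (circles) and LEM (triangles) library. Cox6a2, Ndufa1, Cox6a1 and Cox4i1 climb with each added marker in both libraries, and Sdha stays between 81.9 and 112 CPM.

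Other microglial states differed less from the reference. Chemokine-gated cells, with at least 10 counts of Ccl3 and Ccl4, were 0.09 higher in nuclear and 0.15 higher in mitochondrial-encoded genes (means of the 2 libraries). Of 81 nuclear members 14 were higher and 0 lower, and 11 of the 13 mitochondrial-encoded members were higher, against 10.0% of all genes higher and 23.6% lower. Interferon-gated cells, from 9 interferon-induced genes such as Ifit1 and Isg15, were 0.16 and 0.20 higher. Here 35 nuclear members were higher and 3 lower with 12 mitochondrial-encoded members higher, against 12.6% and 37.5% of all genes. G2/M-gated cells, in division, were 0.30 and 0.29 higher. In them 49 nuclear members were higher and 4 lower with all 13 mitochondrial-encoded members higher, against 32.8% and 35.8% of all genes. Depth was not set equal for these gates. At 6000 to 8000 counts, interferon-gated cells were at 9866 and 10039 CPM (nuclear) and 6303 and 7350 CPM (mitochondrial-encoded). The reference was at 9983 and 9777 and at 6697 and 7184 CPM. At 8000 to 12000 counts interferon-gated cells were at 11260 and 10581 and at 7973 and 8436 CPM. The reference was then at 9899 and 9731 and at 7249 and 7413 CPM. Chemokine-gated cells had nuclear sums of 10288 and 10173 CPM at 6000 to 8000 counts.

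Nuclear and mitochondrial-encoded sums put these 3 gates and the DAM gate in the same order in both libraries. Median counts per cell rose in that order, at 7163 in chemokine-gated, 7180 in interferon-gated, 9969 in G2/M-gated and 11090 in DAM-gated cells in VEH. In LEM they were 7130, 7556, 10317 and 11368. The part of depth in this order was not tested. Complex IV was the highest nuclear complex in each of these gates, at 0.14 in chemokine-gated, 0.29 in interferon-gated, 0.46 in G2/M-gated and 0.82 in DAM-gated cells. Cells with Cox6a2 counts made up 12.1% and 14.6% of chemokine-gated, 13.6% and 15.0% of interferon-gated and 10.9% and 25.9% of G2/M-gated cells. After thinning to 2000 counts the shares were 4.88% and 5.18%, 4.26% and 4.95%, and 1.46% and 10.1%. Markers of other states were present in these gates. Ccl3 and Ccl4 summed to 1777 and 1785 CPM in interferon-gated and 1622 and 950 CPM in G2/M-gated cells, against 81.0 and 76.9 CPM in homeostatic-gated cells. The interferon markers were at 538 and 124 CPM in G2/M-gated and 19.6 and 21.8 CPM in homeostatic-gated cells. The DAM markers summed to 140 and 138 CPM in chemokine-gated, 525 and 489 CPM in interferon-gated and 272 and 451 CPM in G2/M-gated cells, against 2568 and 2292 CPM in DAM-gated and 32.8 and 41.2 CPM in homeostatic-gated cells. The part of these markers and droplets in the contrasts of those gates was not tested.

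Inside DAM-gated cells, LEM over VEH was 0.02 (0.01 to 0.04) for nuclear and 0.03 (0.01 to 0.04) for mitochondrial-encoded genes. These are ratios of single libraries and were not tested against those of the homeostatic-gated cells.

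**Figure D5:**
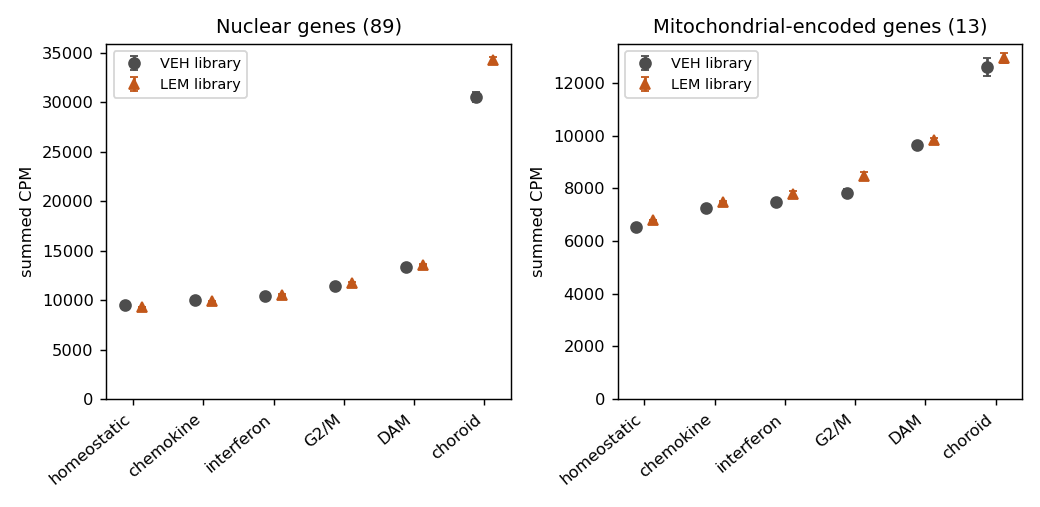
Summed CPM of nuclear (left) and mitochondrial-encoded genes (right) in gated cells (x axis) of the VEH (circles) and LEM (triangles) library, with 95% Poisson intervals as error bars. Of the 6 gates shown, both sums are lowest in homeostatic-gated cells and highest in choroid-gated droplets, where the nuclear sum is 30524 and 34284 CPM.

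All lists of related genes had lower medians than the members in DAM-gated cells. Of the 6 nuclear regulators of mitochondrial genes in at least 10% of cells, 0 were higher and 6 lower (median -0.41), from Pprc1, a coactivator (-0.27 and -0.30), to Nrf1, a transcription factor of respiratory chain genes (-0.61 and -0.70). Of 19 genes that transcribe, process or copy mitochondrial DNA, 3 were higher and 14 lower (median -0.40), with Slirp, a stabiliser of mitochondrial mRNA, highest (0.32 and 0.34) and Polg2, a subunit of the mitochondrial DNA polymerase, lowest (-0.61 and -0.79). Of 75 mitochondrial ribosomal proteins 13 were higher and 23 lower (median -0.07), from Mrpl54 (0.73 and 0.67) to Mrpl44 (-0.34 and -0.42). Counts of higher and lower genes in these lists stand against the same 15.2% and 63.1%, and their medians against -0.28.

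Assembly factors and cytochrome c were likewise mixed, with 6 of 31 higher and 16 lower (median -0.17). Cox17, a copper chaperone for complex IV, was highest (0.39 and 0.44) and Foxred1, a complex I assembly factor, lowest (-0.49 and -0.68), while Cycs, cytochrome c itself, was at 0.31 and 0.43. Of 13 genes of the tricarboxylic acid cycle, 2 were higher and 4 lower (median -0.01), with Mdh2, malate dehydrogenase, at 0.18 and 0.40 and Idh3g, a regulatory subunit of isocitrate dehydrogenase, at -0.31 and -0.28. Carriers and channels were closest to the members, with 5 of 7 higher and 0 lower (median 0.28), among them Slc25a3, the phosphate carrier (0.47 and 0.51), while Vdac3, an outer membrane channel, was at -0.24 and -0.09.

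Between LEM and VEH, the medians of these 6 lists lay from -0.02 to 0.04. The highest gene of each list with the same direction in both sexes was Cox18, an inner membrane insertase (0.30), Mrpl35 (0.25), Pprc1 (0.19), Trmt10c, of mitochondrial RNase P (0.17), Ogdh (0.09) or Slc25a3 (0.05). The lowest were Mrps11 (-0.20), Slc25a4, an ADP/ATP carrier (-0.16), Polg2 (-0.10), Gabpb1 (-0.07), Ndufaf3 (-0.07) and Sucla2 (-0.05, with 0.00 in female cells).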

How the data were processed

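Deposited values were whole-number UMI counts per gene and cell, made by the authors from 10x Chromium 5′ libraries with Cell Ranger 8.0.0 on mm10 and filtered by them on genes, counts and mitochondrial share per cell. No normalization or cell annotation was used from the deposit. The authors report a correction for free RNA with SoupX, and whether it is part of the deposited counts could not be told. The 2 libraries held 116229678 and 160752298 counts, and 0 columns were left unmatched. Cell names hold no barcodes, so barcodes shared by libraries were not counted. Doublets were not called, and droplets with transcripts of both sexes were left out as an alternative.

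Counts were summed over cells and divided by their total (CPM) with Python 3.11.15, numpy 2.4.6 and scipy 1.17.1. Log2 ratios have exact conditional binomial intervals, sums Poisson intervals and shares of cells Clopper-Pearson intervals at 95%. Reads without a unique gene are not counted by this pipeline, so overlapping and near-identical genes are uncertain. Gates took, in order, choroid (3 markers), border macrophage, G2/M, S phase and interferon (4 markers each), DAM and chemokine cells, with the rest homeostatic or in between; the marker Clec7a was not used here. A state was called at a log2 ratio of 0.1 in both libraries. The ratio and its interval were tested on simulated data, which does not measure the spread between real cells. In homeostatic-gated cells thinned to 2000 counts, the variance over the mean of nuclear counts was 2.73 in VEH and 2.50 in LEM. For mitochondrial-encoded counts it was 4.51 in VEH and 4.71 in LEM. Counts thus varied more between cells than counting error alone gives, and the intervals leave this spread out.

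Genes named were all mitochondrial-encoded members, the 3 most abundant of each complex, the 3 highest and lowest in each comparison, known isoforms, non-subunits and the extremes of each pathway list. Genes discussed for core roles, neighbours and promoters were added after values were seen. Members and lists were chosen with earlier results of these data known. Positions are from GENCODE M21 (GRCm38). Some single genes are not reported here.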

Additional observations from a re-analysis of the deposited data

Results flagged for a closer look

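Cox8b, a heart and brown fat form of subunit 8, had log2 ratios of opposite sign in the sexes. It was at 1.24 CPM in VEH and 1.88 CPM in LEM over all cells (log2 0.61). Its log2 ratio of LEM over VEH was 1.99 in male and -1.53 in female cells, and the difference between the sexes was not tested. The VEH pools were at 0.630 CPM in female and 0.513 CPM in male cells, below the 1.24 CPM of all VEH cells, so that these ratios rest on few counts and leave out cells without a single sex call. Of its 144 and 303 counts, 138 and 287 lay in the 45 and 143 choroid-gated droplets. Homeostatic-gated cells had 0 and 8 counts and DAM-gated cells 0 and 0.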

How the results depend on the processing

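For LEM over VEH, the nuclear log2 ratio of 0.01 was -0.01 with median-of-ratios scaling, without choroid and border macrophage gates and at 4000 to 8000 counts, 0.00 with totals that leave out members and the 20 most abundant other genes and with thinning to 2000 counts, 0.02 in female and -0.02 in male cells, so its sign is not settled. The mitochondrial-encoded ratio of 0.06 kept its sign, at 0.05 with median-of-ratios scaling, with the reduced totals and without the 2 gates, 0.06 with thinning, 0.04 in female cells and 0.08 in male cells and at 4000 to 8000 counts. The number of members past the fold was 13, between 11 and 18 in the other settings, and 3 at a log2 ratio of 0.25.

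For DAM-gated over homeostatic-gated cells both sums kept their direction in every setting. The nuclear ratio of 0.52 was 0.53 with the reduced totals, 0.58 with a stricter gate and 0.80 scaled by the median of ratios. The mitochondrial-encoded ratio of 0.55 was 0.56 with the reduced totals, 0.49 with depth standardised and 0.61 with a stricter gate. It was 0.58 without droplets of both sexes, 0.50 in female and 0.61 in male cells, and 0.83 by the median of ratios. Each library alone gave 0.50 and 0.55 for nuclear and 0.53 to 0.56 for mitochondrial-encoded genes, and 3.56 to 4.11 for Cox6a2, whose other settings gave 3.59 to 3.92. The number of nuclear members higher, 56, lay between 52 and 77. The scaling by the median of ratios for states and all settings of that number and of Cox6a2 were chosen after seeing the data.

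No paired analysis was possible because each treatment has 1 library. Treatment cannot be told apart from library, sort and mice, and the limit on mitochondrial share truncates the mitochondrial-encoded level in both libraries.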

Other observations

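Choroid-gated droplets, with at least 3 of 7 choroid plexus markers, had the highest level of these genes. They numbered 45 in VEH and 143 in LEM, and they also held 5871 and 4802 CPM of the 5 homeostatic microglial markers, so that microglial RNA was present in them. Nuclear members summed to 30524 and 34284 CPM and mitochondrial-encoded members to 12595 and 12954 CPM, a mean log2 ratio over homeostatic-gated cells of 1.79 and 0.94. Mitochondrial-encoded counts per nuclear count were 0.413 and 0.378, against 0.691 and 0.731 in homeostatic-gated cells, and 11.1% and 13.3% of the droplets lay at or above 2% mitochondrial counts, near the limit of the authors.

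Some isoforms that were nearly silent in microglia took larger shares of their families there, while Cox4i2 had 0 of 560 and 0 of 1834 family counts. Cox8b was counted in 46.7% and 51.7% of choroid-gated droplets and made up 17.1% and 11.6% of the counts of Cox8a and Cox8b. Cox6b2 made up 18.8% and 17.1% of subunit 6b counts, against 1.03% and 1.39% in homeostatic-gated cells. Cox7a1 made up 5.38% and 9.80% of the Cox7a1 and Cox7a2 counts, against 0.310% and 0.264%. Of the c-ring counts Atp5g1 took 41.7% and 42.2% and Atp5g2 17.7% and 16.0%, and Atp5g3, with 417 and 1455 counts, was level with Atp5g1 (429 and 1468 counts).

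Border macrophage-gated cells (12 and 48) were 0.21 higher than homeostatic-gated cells in nuclear and 0.43 higher in mitochondrial-encoded genes. Of these cells 16.7% and 27.1% held transcripts of both sexes. They also held 5227 and 5359 CPM of the homeostatic microglial markers and 412 and 9.18 CPM of the G2/M markers. In S-phase-gated cells (27 and 34) the nuclear mean was 0.16, and the mitochondrial-encoded log2 ratio was 0.27 in VEH and -0.05 in LEM, with an interval that holds 0 in LEM. Ndufb1-ps, left out by the rule on -ps symbols, was at 94.6 and 87.3 CPM and had log2 ratios of 0.52 and 0.59 in DAM-gated cells. Across homeostatic-gated cells thinned to 2000 counts, Spearman's rho between nuclear and mitochondrial-encoded counts of a cell was 0.09 and 0.11 (11471 and 15111 cells of 1 library each).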
